A study of Mus musculus with 12 samples.

Results

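The genes described here make, load and control the major histocompatibility complex (MHC) class I molecule in mouse macrophages. They are 10 genes chosen by symbol: the class I heavy chains H2-K1 and H2-D1, the light chain B2m, the peptide transporter subunits Tap1 and Tap2, the loading factor Tapbp, the inducible proteasome subunits Psmb8, Psmb9 and Psmb10, and the transactivator Nlrc5. All 10 were found among the 55891 genes of the deposited count table, and all 10 were among the 13525 genes kept after a filter on low counts. The lowest count of any member in any library was 233 (Nlrc5) and the highest was 106656 (H2-D1).

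The cells were bone marrow derived macrophages, grown from mouse marrow over 6 days in M-CSF (10 ng/mL), a cytokine that turns marrow progenitors into macrophages. Marrow came from mice labelled as lacking Ptprz1, a receptor-type tyrosine phosphatase (KO), or as wild type for it (WT). In each genotype the cells were left as controls, given 100 ng/mL of the bacterial lipopolysaccharide LPS together with 10 ng/mL of the cytokine IFNγ for 24 h, or given 20 ng/mL IL-4 for 24 h. The labels call the LPS and IFNγ cells M1 and the IL-4 cells M2. Each of the 6 groups has 2 libraries, numbered 1 and 2, which makes 12 libraries. The strain entry, B6.129-Ptprz1tm1Nmo, is the same for both genotypes, although WT titles begin with B6. Whether the pair of libraries in a group stems from different animals or cultures is not stated, so each p-value speaks of the spread between libraries, which may be technical.

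Class I molecules carry short peptides from the inside of a cell to its surface, where CD8 T cells read them. Proteins are cut into peptides by the proteasome, whose catalytic subunits are exchanged for Psmb8, Psmb9 and Psmb10 in cells that have met interferon, giving the immunoproteasome. TAP, built from Tap1 and Tap2, pumps the peptides into the endoplasmic reticulum, where tapasin (Tapbp) holds TAP next to empty heavy chain and B2m until a peptide fits. NLRC5 switches on many of these genes through a promoter module that is held by RFX, CREB and NF-Y factors.

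In the genome assembly GRCm38 with GENCODE M21 annotation, 7 of the 10 genes lie on chromosome 17. From the lower coordinate they are Tapbp (33915899 to 33929292, plus strand), H2-K1 (33996017 to 34000347, minus), Psmb9 (34181987 to 34187764, minus), Tap1 (34187553 to 34197225, plus), Psmb8 (34197721 to 34201454, plus), Tap2 (34203527 to 34216321, plus) and H2-D1 (35262730 to 35267499, plus). B2m lies on chromosome 2 (122147686 to 122153083, plus), and Nlrc5 (94434356 to 94527272, plus) and Psmb10 (105935735 to 105938444, minus) lie on chromosome 8. Tap1 and Psmb9 point away from each other. Their start sites in RefSeq are 226 bases apart, so their promoter windows, which reach from 250 bases before to 50 after a start, share 275 bases.

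Promoter sequence from RefSeq (GRCm38.p6) was read for 8 of the 10 genes, from 250 bases before the start site to the start. RefSeq starts can differ from the GENCODE ends given above. The windows of H2-D1, Psmb8, Tapbp and Psmb9 lie wholly inside the GENCODE spans of these genes. Tap2 and Nlrc5 have no window in the table used. Both strands were searched for TGACG, the core of CREB-type sites, and for CCAAT, the NF-Y site, whose reverse complement reads ATTGG. The first was in 5 of the 8 windows (B2m, H2-K1, Psmb9, Tap1 and H2-D1) and in 17.6% of 27025 mouse promoters. The second was in 6 of the 8 (Tapbp in addition to those 5) and in 34.2% of all promoters. Because the Tap1 and Psmb9 windows overlap, both hold the same TGACG match (chr17:34187470-34187474) and the same CCAAT match (chr17:34187334-34187338), so with each shared match counted once the windows number 4 and 5. In B2m, H2-K1 and H2-D1 the letters lie in the same order at the same distance, TGACG followed after 20 bases by ATTGG. That arrangement was noticed in the sequences and then counted, and 22 of the 27025 promoters hold it (0.0814%), H2-M3 among them. The stretches are shown because this arrangement of searched letters was found in the light chain and both heavy chains, with TGACG and ATTGG in capitals.
B2m, chr2:122147609-122147638, plus strand: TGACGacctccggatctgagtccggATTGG
H2-K1, chr17:34000359-34000388, minus strand: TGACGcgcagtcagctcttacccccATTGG
H2-D1, chr17:35262993-35263022, plus strand: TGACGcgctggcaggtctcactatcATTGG

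H2-K1 and H2-D1 were identical at 23 of the 30 positions. B2m matched H2-K1 at 13 and H2-D1 at 12, of which 10 are the letters searched for. The stretch begins 78 bases before the RefSeq start site in B2m, 41 in H2-K1 and 101 in H2-D1. Upstream of it the exact letters searched for gave different matches in the light chain and the heavy chains. The 150-base windows of B2m (chr2:122147536-122147685, plus strand) and H2-K1 (chr17:34000349-34000498, minus strand) show these matches in capitals.
B2m: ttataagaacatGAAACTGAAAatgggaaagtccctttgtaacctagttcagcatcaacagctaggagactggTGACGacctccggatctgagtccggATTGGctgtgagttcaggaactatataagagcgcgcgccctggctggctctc
H2-K1: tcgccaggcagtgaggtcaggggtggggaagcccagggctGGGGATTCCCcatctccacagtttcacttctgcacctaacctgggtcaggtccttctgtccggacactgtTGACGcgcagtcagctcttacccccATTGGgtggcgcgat

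The first capitals in the B2m window match the interferon-stimulated response element, searched as GAAA, any 2 bases, GAAA, which 3.06% of promoters hold. Among the 8 members that exact pattern was in B2m alone. The first capitals in the H2-K1 window are GGGGA followed directly by TTCCC, an NF-κB type match that 22 promoters (0.0814%) hold, H2-K1 and H2-D1 among them, in each at 70 bases from the first base of the match to the first base of TGACG. A gamma-activated site, TTC, any 3 bases, GAA, was found in Psmb8, 97 bases before its RefSeq start, and in 7.11% of promoters. Variants of these patterns were not searched for, so a window without a match may still hold one. Each match is a description of letters and not a measured binding site.

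Library depth ran from 13665607 to 19555600 counts. Levels are given as CPM, counts scaled to a common library size with edgeR's TMM factors, which were 0.756 to 0.833 in LPS and IFNγ libraries and 1.09 to 1.16 in the others. The 10 genes took 0.295% to 0.509% of all counts in control and IL-4 libraries and 1.90% to 1.99% in LPS and IFNγ libraries. Macrophage genes (Csf1r, Adgre1, Cd68, Lyz2, Itgam, Mertk, Fcgr1 and Cd14) summed to 8138 to 20860 CPM in every library. Stromal genes (Col1a1, Col1a2, Col3a1, Postn, Dcn and Sparc) summed to 54.97 to 402 CPM in WT and 318 to 1509 CPM in KO libraries. T and NK, B, dendritic, mast and erythroid lists each stayed at or below 4.83 CPM. The granulocyte list ran from 0.829 CPM to 221 CPM, its highest sum being in KO LPS and IFNγ library 2, where S100a8 alone gave 220.3 CPM and S100a9, Elane, Ly6g and Ngp were at 0. The Y-linked gene Ddx3y had counts in 6 of 6 KO and 0 of 6 WT libraries, and Xist the reverse, so genotype and sex cannot be told apart here. Ptprz1 itself had counts in 1 of 6 WT and 0 of 6 KO libraries and therefore gives no check of the knockout in these cells.

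**Figure D1:**
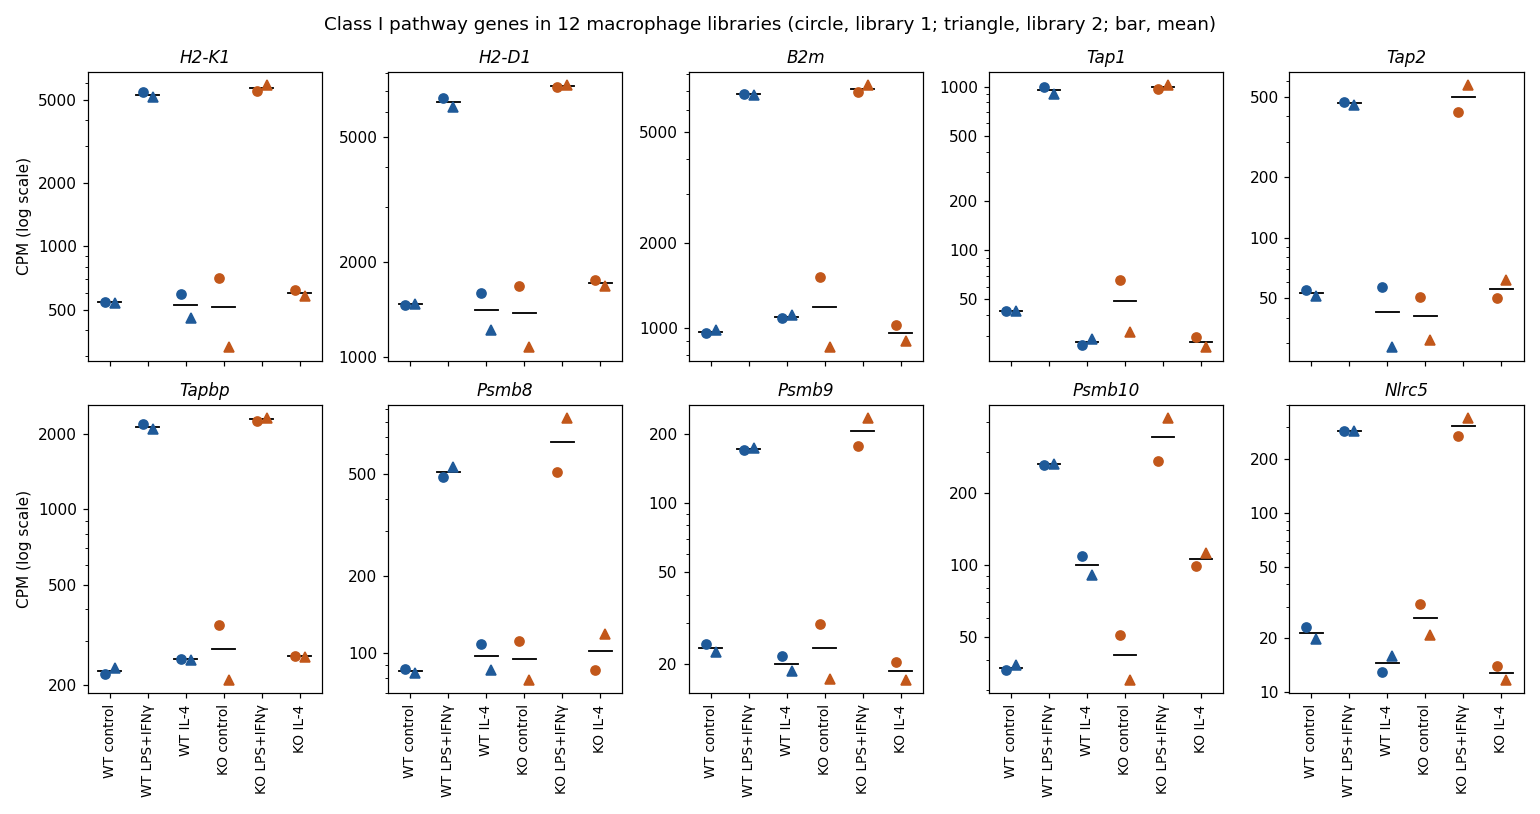
TMM-scaled CPM on a log axis for each of the 10 genes, by group, with a circle for library 1, a triangle for library 2 and a bar for the mean of the 2. In every panel the 4 LPS and IFNγ libraries lie above the 8 others, as they do for 26.2% of the 13525 genes tested, and the KO control libraries lie apart from each other.

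LPS with IFNγ raised every gene of the set in both genotypes. In WT cells 10 of 10 were called higher, with log2 fold changes from 2.14 (H2-D1) to 4.48 (Tap1) and a median of 3.01. In KO cells 10 of 10 were called higher, from 2.40 (H2-D1) to 4.35 (Tap1), with a median of 3.09. A gene was called when its p from edgeR (quasi-likelihood F test), after Benjamini-Hochberg adjustment over all 13525 genes, was below 0.05. The same rule called 27.4% of all genes higher and 27% lower in WT, and 27.2% higher and 26.1% lower in KO. The median over all genes was -0.05 in WT and -0.01 in KO. Being called was thus common in this comparison, and the median change of the members lay above the median over all genes. In such bulk samples, a change in the share of cells that express a gene and a change in RNA per cell cannot be told apart.

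The heavy chains present the peptide. H2-K1 was at 544 and 538 CPM in WT controls and at 5459 and 5153 CPM after LPS and IFNγ. In KO it was at 703 and 329.9 CPM in controls and at 5527 and 5892 CPM after LPS and IFNγ. The lowest treated library, at 5153 CPM, lay far above the highest control, at 703 CPM. The log2 fold changes were 3.29 ± 0.315 (SE) in WT (adjusted p 2.14e-05) and 3.47 ± 0.318 in KO (adjusted p 1.77e-05), edgeR.

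H2-D1, the other classical heavy chain, began higher and rose less. It was at 1463 and 1470 CPM in WT controls against 6658 and 6232 CPM after LPS and IFNγ. In KO cells the controls were at 1674 and 1069 CPM against 7201 and 7315 CPM. The fold was 4.39 in WT (log2 2.14 ± 0.219, adjusted p 3.31e-05) and 5.29 in KO (log2 2.40 ± 0.221, adjusted p 1.82e-05), edgeR. Per length, as CPM per kilobase of the principal transcript (RPKM), the H2-K1 level was 0.483 and 0.475 of the H2-D1 level in the WT control libraries and 1.06 and 1.07 of it after LPS and IFNγ. In KO the ratio was 0.545 and 0.401 in controls and 0.997 and 1.05 after LPS and IFNγ. The groups of that ratio did not overlap in either genotype, so the balance of the 2 heavy chains moved towards H2-K1. With the length of all annotated exons instead, the treated WT ratios were 0.720 and 0.726 and the control ratios 0.326 and 0.321. Which heavy chain is higher after treatment thus depends on the length used. A change of length scales this ratio alike in every library, so it cannot test the shift.

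The counts of both heavy chains are less certain than those of the others. Of the 31-base words in the H2-K1 transcript, 23.3% also occur in transcripts of other genes, with H2-Bl, H2-Q7 and H2-D1 sharing most. For H2-D1 it was 27.5%, and for the other 8 members 0% to 2.86%. Over 75 bases the shares were 1.55% and 6.90%. Reads from such words could have been divided between relatives.

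B2m is the invariant light chain that every class I heavy chain needs. It was at 957 and 984 CPM in WT controls and 6824 and 6784 CPM after LPS and IFNγ. The KO controls, at 1519 and 853 CPM, lay apart, and the treated KO libraries were at 6905 and 7339 CPM. All 4 treated libraries lay within 6784 to 7339 CPM, and the log2 fold changes were 2.81 ± 0.244 in WT (adjusted p 1.17e-05) and 2.59 ± 0.241 in KO (adjusted p 1.98e-05), edgeR. Per length B2m was 1.08 and 1.11 times the sum of H2-K1 and H2-D1 in WT controls and 1.21 and 1.28 times it in treated WT libraries. In KO this ratio was 1.43 and 1.39 in controls and 1.17 and 1.2 after treatment. Over the 12 libraries the ratio lay between 0.904 and 1.51, the ends being IL-4 libraries, and between 1.23 and 2.08 with the length of all exons.

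Tap1, which forms one arm of the peptide pump, had the largest fold of the set. Its level was 42.3 and 42.5 CPM in WT controls and 993 and 899 CPM after LPS and IFNγ. In KO it was 65.9 and 31.6 CPM in controls and 970.2 and 1022 CPM after treatment. That is a 22.3-fold rise in WT (log2 4.48 ± 0.303, adjusted p 3.02e-06) and a 20.4-fold rise in KO (log2 4.35 ± 0.301, adjusted p 3.51e-06), edgeR. The KO value was 4.98 without KO control library 1 and 3.92 without library 2.

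Tap2, the other arm, rose less. WT controls were at 54.8 and 51.2 CPM and treated WT libraries at 474 and 455 CPM. KO controls were at 50.4 and 30.96 CPM and treated KO libraries at 423 and 573 CPM. The log2 fold change was 3.13 ± 0.339 in WT (adjusted p 4.73e-05) and 3.61 ± 0.347 in KO (adjusted p 2.35e-05), edgeR. Per length, Tap1 stood at 0.901 and 0.968 of Tap2 in WT controls and at 2.44 and 2.30 of it after LPS and IFNγ. In KO the ratio was 1.52 and 1.19 in controls and 2.67 and 2.08 after treatment, so in each genotype both treated libraries lay above both controls. With the length of all exons the WT controls were at 0.534 and 0.574, the KO controls at 0.903 and 0.706 and the treated KO libraries at 1.58 and 1.23, so how near the pair stood to equal levels depends on the length used. Tap2 exons overlap the antisense gene Gm20496 by 165 bases and Gm15821 by 533 bases, and strand use in counting is not given in the sources used here, so its counts carry that uncertainty.

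Tapbp bridges TAP and the empty class I molecule and edits the peptide. It was at 220.9 and 233 CPM in WT controls and at 2187 and 2097 CPM after LPS and IFNγ. In KO it went from 345 and 208 CPM to 2257 and 2319 CPM. The log2 fold changes, 3.24 ± 0.214 in WT (adjusted p 2.55e-06) and 3.05 ± 0.212 in KO (adjusted p 3.61e-06, edgeR), place tapasin between Tap1 and Tap2 in WT and below both in KO. Its exons overlap the antisense gene Gm19412 by 904 bases, the longest such overlap among the members, and Zbtb22 on the same strand by 149 bases.

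Psmb8 is the inducible subunit that takes the place of Psmb5. WT controls were at 86.9 and 84.3 CPM and treated WT libraries at 487 and 535 CPM. KO controls were at 112 and 78.6 CPM and treated KO libraries at 512 and 828 CPM, the largest ratio between the libraries of an LPS and IFNγ group for any member. Log2 fold changes were 2.58 ± 0.270 in WT (adjusted p 3.84e-05) and 2.81 ± 0.273 in KO (adjusted p 2.49e-05), edgeR. Psmb8 exons overlap the antisense Gm20496 by 498 bases.

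Psmb9 replaces Psmb6. It was at 24.3 and 22.4 CPM in WT controls and at 171 and 173 CPM after LPS and IFNγ. In KO the controls stood at 29.9 and 17.1 CPM and the treated libraries at 178 and 235 CPM. The rise was 7.36-fold in WT (log2 2.88 ± 0.248, adjusted p 1.14e-05) and 8.75-fold in KO (log2 3.13 ± 0.251, adjusted p 7.97e-06), edgeR. Although Psmb9 shares its upstream region with Tap1, its fold was smaller than the 22.3-fold of Tap1 in the same WT libraries. The exons of the pair overlap by 212 bases on opposite strands.

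Psmb10 replaces Psmb7. Its level was 36.2 and 38.0 CPM in WT controls and 264 and 266 CPM after LPS and IFNγ. In KO it was 50.9 and 32.9 CPM in controls and 274 and 415 CPM after treatment. Log2 fold changes were 2.84 ± 0.244 in WT (adjusted p 1.14e-05) and 3.04 ± 0.246 in KO (adjusted p 8.42e-06), edgeR.

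Nlrc5, the transactivator of the set, was the least abundant per length. It was at 23.2 and 19.9 CPM in WT controls and at 287.4 and 287.5 CPM in the treated WT libraries. KO controls were at 31.1 and 20.9 CPM and treated KO libraries at 269 and 339 CPM. The log2 fold change of 3.74 ± 0.219 in WT (adjusted p 1.29e-06, edgeR) was second in the set to that of Tap1. In KO it was 3.54 ± 0.216 (adjusted p 1.87e-06, edgeR), behind Tap1 and Tap2.

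Per length, the members differed widely in level within a library. In WT control library 1 the RPKM values were 1113 for B2m, 696 for H2-D1, 336 for H2-K1, 76.2 for Tapbp, 53.4 for Psmb8, 27.6 for Psmb10, 18.0 for Psmb9, 15.9 for Tap2, 14.3 for Tap1 and 3.06 for Nlrc5. After LPS and IFNγ, WT library 1 gave 7935 for B2m, 3372 for H2-K1, 3167 for H2-D1, 755 for Tapbp, 336 for Tap1, 299 for Psmb8, 201 for Psmb10, 138 for Tap2, 126 for Psmb9 and 37.9 for Nlrc5. Presenting chains stayed on top and Nlrc5 at the bottom, and Tap1 stood in the ninth place in the control and in the fifth after treatment. In WT library 2 it went from the ninth to the sixth, and in KO from the seventh to the fifth (library 1) and from the eighth to the sixth (library 2).

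**Figure D2:**
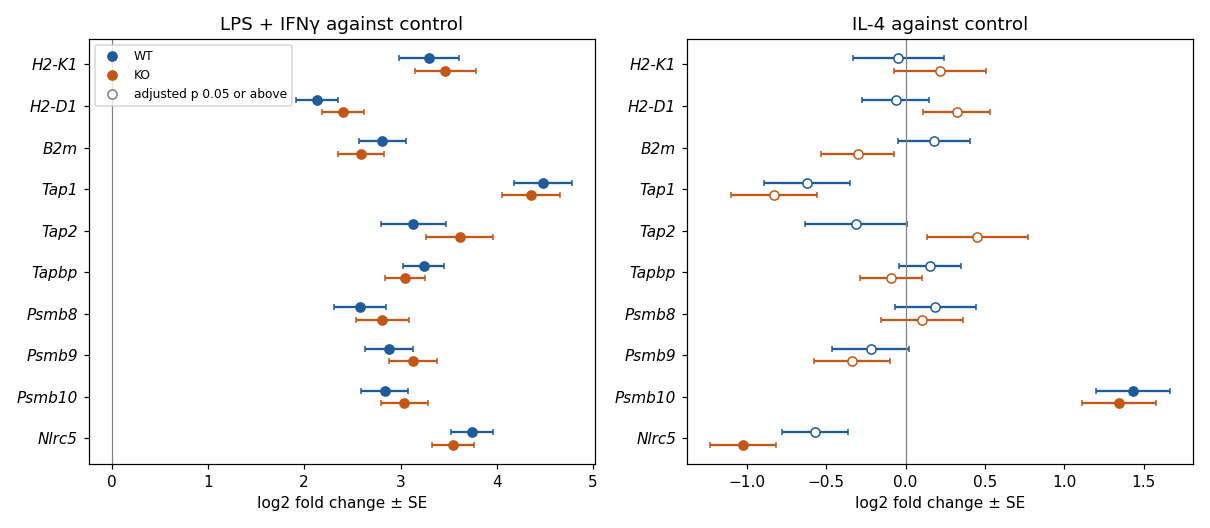
Log2 fold change with its standard error for each gene, LPS and IFNγ against control on the left and IL-4 against control on the right, WT in blue and KO in orange, with filled symbols for an adjusted p below 0.05 (edgeR). Every symbol on the left is filled and lies above 2, while on the right only Psmb10 in both genotypes and Nlrc5 in KO are filled.

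The inducible subunits rose further than the constitutive ones they replace. Psmb5, Psmb6 and Psmb7 were each called higher too in both genotypes after LPS and IFNγ, with log2 fold changes in WT of 1.07 ± 0.2, 0.59 ± 0.188 and 0.79 ± 0.1 (adjusted p 0.00144, 0.0235 and 0.000138, edgeR). Per length, Psmb8 was 0.613 and 0.609 of Psmb5 in WT controls and 1.65 and 1.82 of it after treatment. In KO the ratio was 0.754 and 0.463 in controls and 1.61 and 2.01 after treatment. Control and treated libraries did not overlap.

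For Psmb9 over Psmb6 the ratio went from 0.181 and 0.163 in WT controls to 0.856 and 0.824 after LPS and IFNγ. In KO it went from 0.214 and 0.106 to 0.919 and 0.801. Psmb9 therefore remained below its constitutive counterpart in all 12 libraries by this measure.

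For Psmb10 over Psmb7 the WT ratio was 0.457 and 0.435 in controls and 1.87 and 1.82 after treatment. In KO it was 0.539 and 0.348 in controls and 1.94 and 2.75 after treatment. Where such a ratio stands against 1 depends on the length assigned to each gene. With the length of all exons, Psmb8 over Psmb5 was 0.795 and 0.877 in treated WT libraries, and Psmb10 over Psmb7 was 1.04 and 0.987 in WT controls. The change of a ratio between libraries is the same with either length.

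**Figure D3:**
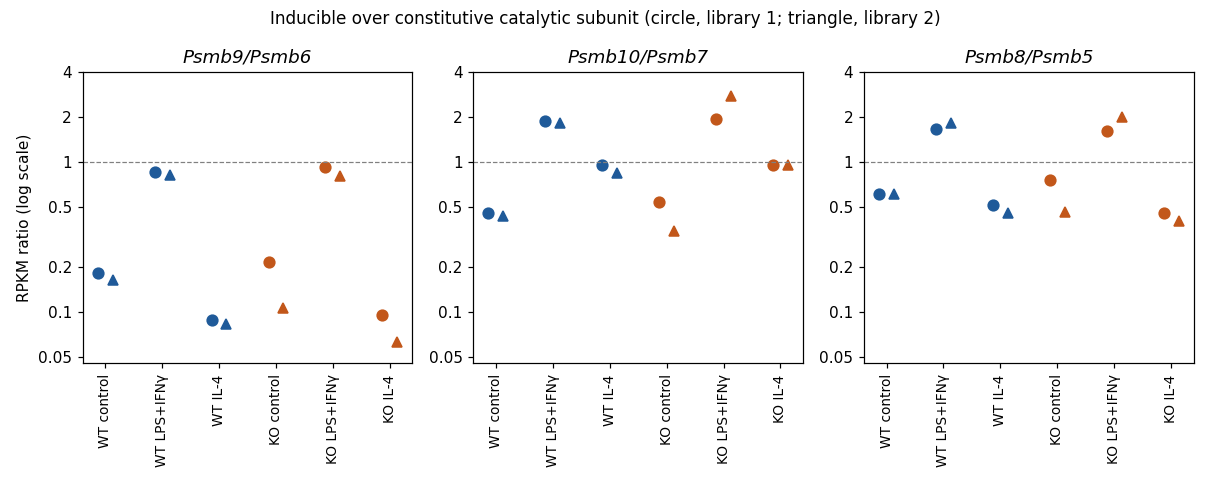
Ratio of RPKM, on a log axis, of each inducible catalytic subunit to the constitutive subunit it replaces, with a circle for library 1, a triangle for library 2, WT in blue and KO in orange. Treated libraries with LPS and IFNγ have the highest ratio in every panel, and IL-4 libraries lie below the controls for Psmb9 over Psmb6 but above them for Psmb10 over Psmb7.

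Other genes of the pathway were read from lists by role. With LPS and IFNγ, 27.4% of all genes rose and 27% fell in WT, and 27.2% rose and 26.1% fell in KO. The list counts for this treatment, here and in the next paragraphs, are to be read beside these shares. Of 13 tested non-classical class I genes, which encode class I relatives with more specialised ligands, 12 rose and 0 fell in each genotype. H2-Q1 and H2-Q10 are among the 12 although no control library held more than 3 counts of either, so they passed the filter through other libraries. Without them 10 of 11 rose in each genotype, with a median log2 fold change of 4.58 in WT and 4.73 in KO. H2-Q6 averaged 1.79 CPM in WT controls and 1255 CPM after treatment (log2 9.45 ± 0.483, adjusted p 6.36e-07, edgeR). H2-Q7 averaged 2.72 and 711 CPM (log2 8.03 ± 0.537, adjusted p 2.77e-06, edgeR), H2-T24 rose by 5.64 on the log2 scale, and H2-T23, the mouse Qa-1 molecule, by 3.59. These close relatives share sequence with one another, so the division of counts among them is uncertain.

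Of 7 tested loading and trimming genes, 3 rose and 0 fell in WT: Tapbpl, the tapasin relative that edits peptides without binding TAP (log2 3.54 ± 0.178, adjusted p 5.88e-07, edgeR), the chaperone Hspa5 (0.92 ± 0.215, adjusted p 0.00536) and the peptide-trimming enzyme Erap1 (0.71 ± 0.148, adjusted p 0.00275). The same count, 3 of 7, rose in KO. Calreticulin (Calr), which holds the heavy chain during loading, had a log2 fold change of 0.20 ± 0.125 in WT (adjusted p 0.199, edgeR) and was not called.

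Among 7 proteasome activator and assembly genes, 5 rose and 2 fell in WT, and 4 rose and 2 fell in KO. The PA28 activator subunits Psme1 and Psme2 rose by 2.17 ± 0.186 and 2.71 ± 0.215 on the log2 scale in WT (adjusted p 1.11e-05 and 7.06e-06, edgeR). Psme4 rose by 1.54 ± 0.0929. Pomp, the chaperone for proteasome assembly, rose by 1.01 ± 0.0963 (adjusted p 2.09e-05, edgeR).

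Of 14 transcriptional regulators, 6 rose and 1 fell in WT, and 7 rose and 0 fell in KO. Stat2, which carries the type I interferon signal to the nucleus, rose by 4.62 ± 0.319 on the log2 scale in WT, and Irf1, an interferon-induced transcription factor, by 3.42 ± 0.316 (adjusted p 3.23e-06 and 1.77e-05, edgeR). Ciita, the class II counterpart of Nlrc5, fell by 3.73 ± 1.29 in WT (adjusted p 0.0334, edgeR), from a mean of 6.87 CPM to 0.510 CPM. In KO its change was -2.22 ± 1.36 (adjusted p 0.199, edgeR) and was not called.

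Cross-presentation lets macrophages and dendritic cells load peptides from engulfed protein. Of its 7 genes, 4 rose and 1 fell in WT, and 3 rose and 1 fell in KO. Cybb, the oxidase subunit of the phagosome, rose by 2.33 ± 0.180 on the log2 scale in WT, Lnpep, a trimming enzyme of endosomes, by 1.21 ± 0.125, and the protease Ctss by 0.76 ± 0.173 (adjusted p 5.94e-06, 3.60e-05 and 0.00462, edgeR). Pirb, an inhibitory receptor on myeloid cells that binds class I, rose by 1.89 ± 0.172 on the log2 scale in WT, and Lilr4b and Lilrb4a, relatives listed with it, by 0.94 ± 0.138 and 0.70 ± 0.175 (adjusted p 1.58e-05, 0.000320 and 0.00736, edgeR). All 3 also rose in KO.

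IL-4 left most of the set near its control level. In WT 1 of 10 genes was called higher and 0 lower, where 4.92% of all genes were called higher and 4.12% lower. In KO 1 of 10 was called higher and 1 lower, against 3.52% and 3.34% of all genes. The median log2 fold change of the members was -0.05 in WT and 0.0065 in KO, and -0.02 and 0.0036 over all genes. Controls are shared between the IL-4 and the LPS and IFNγ comparisons of a genotype, so the values of the 2 comparisons are not independent.

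Psmb10 was the gene that rose. It was at 110 and 90.9 CPM in the WT IL-4 libraries against 36.2 and 38.0 CPM in WT controls, and at 99.6 and 113 CPM in the KO IL-4 libraries against 50.9 and 32.9 CPM in KO controls. All 4 IL-4 libraries lay above all 4 controls and below all 4 LPS and IFNγ libraries. The share of all genes separated in this way was not counted. The log2 fold change was 1.43 ± 0.234 in WT (adjusted p 0.00763) and 1.34 ± 0.233 in KO (adjusted p 0.0114), edgeR. Leaving out WT control library 1, WT control library 2 or WT IL-4 library 1 gave a WT adjusted p of 0.0893, 0.0653 and 0.0627 with log2 fold changes of 1.40, 1.47 and 1.29. In KO, leaving out IL-4 library 2 gave an adjusted p of 0.0562 (log2 1.25), and a fit to the KO control and IL-4 libraries alone gave 0.133 (log2 1.32).

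The other inducible subunits did not share this. Psmb8 had log2 fold changes of 0.19 ± 0.257 in WT and 0.10 ± 0.256 in KO, and Psmb9 had -0.22 ± 0.240 and -0.34 ± 0.240, none of them called. Psmb10 over Psmb7 was 0.959 and 0.847 in WT IL-4 libraries and 0.958 and 0.955 in KO IL-4 libraries, above all 4 controls. Psmb9 over Psmb6 was 0.0877 and 0.0829 in WT and 0.0946 and 0.0626 in KO, below all 4 controls. Psmb6 and Psmb7 themselves were called higher with IL-4 in WT, by 0.79 ± 0.188 and 0.41 ± 0.0999 on the log2 scale (adjusted p 0.0326 and 0.0346, edgeR). Their KO changes of 0.69 ± 0.187 and 0.23 ± 0.0997 were not called (adjusted p 0.0591 and 0.190, edgeR). Pomp rose by 0.56 ± 0.0957 in WT (adjusted p 0.00932, edgeR) and was not called in KO. Of its list of 7 activator and assembly genes, edgeR called 2 higher in WT and 0 in KO. Over all genes 4.92% and 3.52% were called higher. DESeq2 called 4 and 1 of the 7 higher.

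Nlrc5 was at 13 and 16.0 CPM in WT IL-4 libraries against 23.2 and 19.9 CPM in controls, and at 13.9 and 11.7 CPM in KO IL-4 libraries against 31.1 and 20.9 CPM. All 4 IL-4 libraries lay below all 4 controls, and the share of all genes separated in this way was not counted. The KO difference was called (log2 -1.02 ± 0.208, adjusted p 0.0217) and the WT difference was not (log2 -0.57 ± 0.207, adjusted p 0.120), edgeR. The test of the difference between the genotypes gave -0.46 ± 0.292 (adjusted p 1, edgeR), so a different response was not shown. The KO call was lost without KO control library 1 (log2 -0.71, adjusted p 0.113), without KO IL-4 library 2 (log2 -0.90, adjusted p 0.127) and in a fit to the KO control and IL-4 libraries alone (log2 -1.04, adjusted p 0.194).

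Tap1 showed the same order of IL-4 and control libraries without being called, again with no share over all genes to set beside it. It was at 26.4 and 28.8 CPM in WT IL-4 and 29.5 and 25.5 CPM in KO IL-4 libraries, below all 4 controls, whose lowest was 31.6 CPM. Log2 fold changes were -0.62 ± 0.270 in WT (adjusted p 0.188) and -0.83 ± 0.270 in KO (adjusted p 0.0980), edgeR. DESeq2 called it in KO (adjusted p 0.0166). With 1 library left out at a time, the KO log2 fold change of Tap1 ran from -1.30 to -0.20 (edgeR). The value of -1.30 was without KO control library 2, so the size of the fall depended on the library left out. H2-K1, H2-D1, B2m, Tap2 and Tapbp were not called with IL-4 in either genotype, with log2 fold changes between -0.31 (Tap2, WT) and 0.45 (Tap2, KO). B2m in KO was called without KO control library 2 (log2 -0.69, adjusted p 0.0206, edgeR).

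Outside the set, IL-4 raised 3 of 7 loading and trimming genes in WT and 0 of 7 in KO by edgeR, against 4.92% and 3.52% of all genes. In KO, 2 of the 7 were below 0.05 before adjustment, as were 3308 of all 13525 genes, and 1 passed by DESeq2. Calr rose by 1.11 ± 0.126 on the log2 scale in WT (adjusted p 0.00138, edgeR), and its KO change of 0.43 ± 0.125 was not called (adjusted p 0.0732, edgeR). It was at 584 and 618 CPM in WT controls and 799 and 881 CPM in KO controls. With IL-4 it was at 1290 and 1314 CPM in WT and 1156 and 1105 CPM in KO. The test of a different IL-4 response between the genotypes called 0 of these 7 genes (edgeR). Before adjustment 2 were below 0.05, as were 604 of all 13525 genes. Hspa5 rose by 0.87 ± 0.215 in WT (adjusted p 0.0372, edgeR). Cybb fell in both genotypes, by 1.16 ± 0.174 in WT and 1.42 ± 0.175 in KO (adjusted p 0.00515 and 0.00277, edgeR). By edgeR 0 of 13 non-classical class I genes and 0 of the 3 genes Pirb, Lilr4b and Lilrb4a were called in either genotype with IL-4. At an unadjusted p below 0.05 there were 4 (WT) and 2 (KO) of the 13. Of the 3 there was 1 in each genotype. The same held for 3460 (WT) and 3308 (KO) of all 13525 genes. DESeq2 called 1 of each list lower in WT and 0 in KO. Macrophage markers were called lower in 4 of 8 (WT) and 3 of 8 (KO) with IL-4, against 4.12% and 3.34% of all genes. The part of these markers in the values above was not tested.

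None of the 10 genes was called between cells labelled KO and WT for Ptprz1. These labels cannot be told apart from sex, as given above, and Ptprz1 had counts in only 1 of 6 WT libraries. KO was compared with WT in controls, after LPS and IFNγ and after IL-4, and 0 of 10 members were called each time, with 0 of 10 at an unadjusted p below 0.05 and 0 of 10 by DESeq2 in each. Over all genes the test called 0.0739%, 0.0591% and 0.0665% in the 3 comparisons. In controls the log2 differences of the members ran from -0.38 (Tap2, 95% interval -1.1 to 0.34) to 0.29 (B2m, -0.22 to 0.80). After LPS and IFNγ all 10 were positive, as were 6943 of all 13525 genes. The members ran from 0.066 (B2m, -0.45 to 0.58) to 0.39 (Psmb8, -0.18 to 0.96), all measured in the same libraries. After IL-4 they ran from -0.19 (B2m, -0.70 to 0.32) to 0.38 (Tap2, -0.33 to 1.1). These intervals allow differences of up to about a doubling for some members, so the data do not show that the genotypes are alike.

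**Figure D4:**
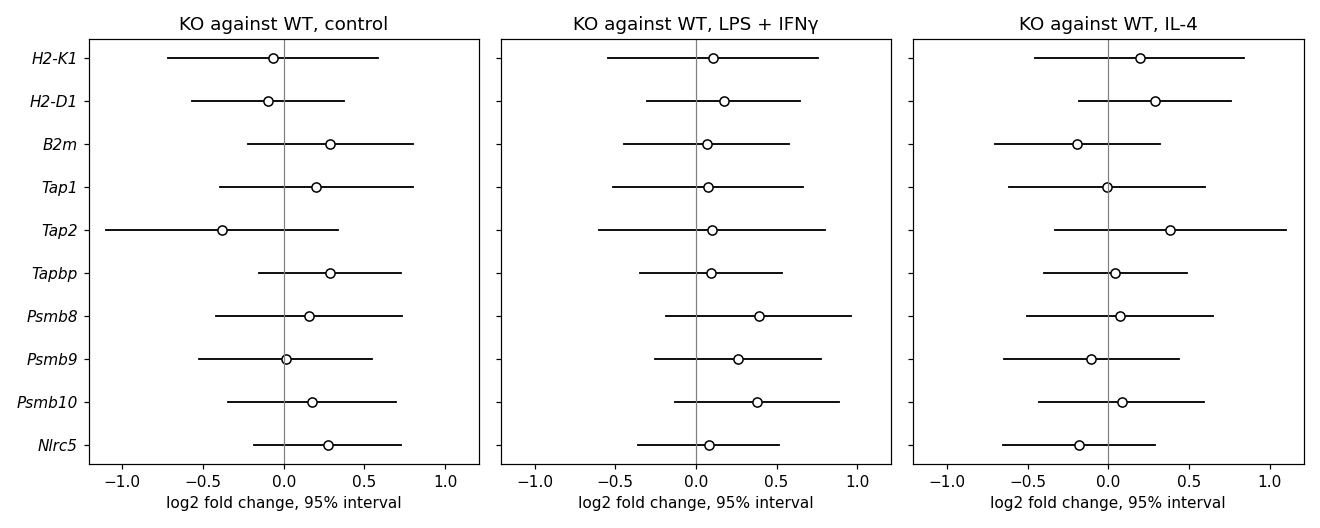
Log2 fold change of KO against WT for each gene with its 95% interval from the edgeR fit, in controls (left), after LPS and IFNγ (middle) and after IL-4 (right). All 30 intervals include 0.

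After LPS and IFNγ, both KO libraries lay above both WT libraries for 6 of the 10 genes: H2-K1, H2-D1, B2m, Tapbp, Psmb9 and Psmb10. Over all genes tested, 19.5% were separated in this way. The gaps were small beside the response itself. For H2-D1 the KO libraries gave 7201 and 7315 CPM, and 6658 and 6232 CPM were measured in WT (log2 0.17 ± 0.210, adjusted p 0.834, edgeR). Psmb10 was at 274 and 415 CPM against 264 and 266 CPM (log2 0.38 ± 0.227, adjusted p 0.672, edgeR). Stromal genes summed to 318 and 849 CPM in these KO libraries and to 54.97 and 215 CPM in the WT ones, and their part in the difference was not tested.

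The test of a different response in KO and WT cells, the interaction term, called 0 of 10 members for LPS and IFNγ and 0 of 10 for IL-4, and 0% of all genes in each. At an unadjusted p below 0.05 there were 0 of 10 members in each, and DESeq2 called 0 of 10. For LPS and IFNγ the differences in log2 response, KO less WT, ran from -0.22 ± 0.322 (B2m) to 0.48 ± 0.445 (Tap2). For IL-4 they ran from -0.48 ± 0.322 (B2m) to 0.76 ± 0.450 (Tap2).

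The KO controls carried most of the spread. In KO control library 1 all 10 members were higher than in library 2, with log2 ratios from 0.51 (Psmb8) to 1.09 (H2-K1) and a median of 0.72, where the median absolute difference over all genes of this pair was 0.232 and 49.5% of genes were higher in library 1. In WT controls 5 of 10 were higher in library 1 and the ratios lay between -0.08 and 0.22. KO control library 1 also held more type I interferon-stimulated transcripts. The 13 genes of that list summed to 294 CPM there, to 38.5 CPM in KO control library 2 and to 40.5 and 42.8 CPM in the WT controls. Ifit3 was at 36.5 against 2.10 CPM and Irf7, the regulator of interferon genes, at 48.8 against 6.53 CPM in the KO pair. The part of these transcripts in the KO comparisons was not tested, and 0 of 10 members were called in KO against WT controls with either KO library left out. The size of the KO response to LPS and IFNγ moved with them: the members' median log2 fold change of 3.09 became 3.52 without KO control library 1, and H2-K1 went from 3.47 to 4.11 without library 1 and 3.02 without library 2. H2-K1 and Tap1 were the members whose fold moved by more than 1.5 times without library 1.

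In the other groups the library differences had another shape. Among KO libraries given LPS and IFNγ, 10 of 10 members were lower in library 1. The log2 gap was largest for Psmb8 (0.69), then Psmb10 (0.60), and smallest for H2-D1 (0.02). Of all genes, 48.5% were higher in library 1 of this pair. The median absolute log2 difference was 0.299 over all genes and 0.213 over the members. In WT IL-4, Tap2 was at 57.0 and 28.4 CPM, the largest ratio between libraries among the members in that group. KO libraries numbered 2 held more stromal transcripts than those numbered 1 (1006 against 406 CPM in controls, 849 against 318 CPM after LPS and IFNγ, 1509 against 394.5 CPM after IL-4), and so did WT libraries numbered 2, at lower levels.

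**Figure D5:**
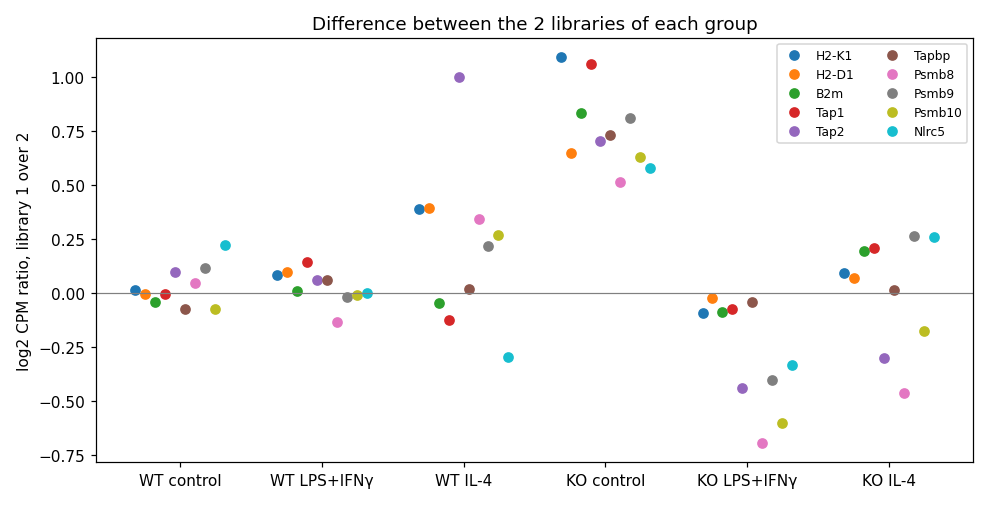
Log2 ratio of CPM in library 1 over library 2 for each gene within each of the 6 groups, with 1 colour per gene. KO controls lie above 0 for 10 of 10 genes, and KO libraries with LPS and IFNγ lie below 0 for 10 of 10. Over all genes, 49.5% and 48.5% were higher in library 1 of these pairs. The WT control and WT LPS and IFNγ ratios stay between -0.14 and 0.22.

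The members kept to a common profile over the 12 libraries, which is dominated by the LPS and IFNγ step. Each member's log2 CPM was standardised and the 10 were averaged. Pearson's r of a member with that mean was 0.976 to 0.998 for all except Psmb10, where it was 0.890. Each member is itself part of the mean, which raises its r, while genes outside the set are not. Outside the set, the 5 genes with the highest r were Tspo (0.998), Parp10 (0.997), H2-T22 (0.996), Uba7 (0.996) and H2-Q7 (0.996). Tspo is a protein of the outer mitochondrial membrane, Parp10 transfers ADP-ribose, Uba7 is the activating enzyme for ISG15, and H2-T22 and H2-Q7 are non-classical class I genes. Their log2 fold changes with LPS and IFNγ in WT were 3.45 ± 0.161, 3.65 ± 0.211, 4.79 ± 0.217, 2.97 ± 0.272 and 8.03 ± 0.537 in that order. With 6 groups behind the 12 points and 1 treatment setting the scale, r describes likeness of these profiles and nothing more.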

How the data were processed

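The authors deposited whole-number estimated counts per gene. Salmon 1.10.2, DESeq2 1.45.3, R 4.4.1, FastQC 0.11.9 and genome build GRCm39 are named, with no role, per the submitters' processing notes. The annotation, and whether counting used strand, is not given in the sources used here. Per the labels' protocols, libraries came from total RNA with a directional NEBNext kit. Sample titles set groups and library numbers, and 0 columns were left unassigned. Of 55891 identifiers, 51425 matched a GENCODE M21 symbol. Coordinates are GRCm38 and were not converted.

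Genes were filtered with filterByExpr, scaled by TMM and fitted with 1 coefficient per group over 12 libraries in edgeR 4.0.16 (R 4.3.3), giving 6 residual degrees of freedom. Two-sided quasi-likelihood F tests of 9 contrasts were adjusted over 13525 genes. The standard error is the log2 fold change over the root of F. Scripts were tested on simulated data. DESeq2 1.42.0, other scalings and filters, the libraries of a contrast alone, a replicate block and leaving out each library were tried. In every group the libraries differed by more than sampling noise. RPKM used the principal transcript's length.

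The members and the other lists were chosen with earlier results of these data known. Named genes are the 10 members, per list the 3 called genes with the largest change in WT with LPS and IFNγ, the genes Irf1, Psmb5, Psmb6, Psmb7, Psme1, Psme2, H2-T23 and Calr, and the 5 genes most like the members. Pomp, and the interferon-stimulated genes given for the KO controls, were added after their values were seen. Counts without H2-Q1 and H2-Q10 were likewise added then. One gene of the naming rule is not reported here. H2-T9, Nrdc and Pira6 were not matched.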

Additional observations from a re-analysis of the deposited data

How the results depend on the processing

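All 10 members were called higher with LPS and IFNγ in both genotypes in every setting run, with adjusted p-values up to 0.00866, and 0 were called in KO against WT or in the interactions in any setting. With IL-4 in WT, 1 member was called, 2 without a low-count filter (Nlrc5, adjusted p 0.0393) and 3 in the libraries of the contrast alone (Nlrc5, 0.0369, and Tap1, 0.00435), and 0 to 1 when a library was left out. With IL-4 in KO, 2 were called, 3 with DESeq2 or without the filter (Tap1, 0.0166 and 0.00632), 0 in the libraries of the contrast alone, and 0 to 4 when a library was left out. DESeq2 size factors moved the median over all genes by at most 0.025.

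The replicate numbers do not establish pairing: same-numbered libraries deviated together with correlations of 0.0464 to 0.337 over 15 pairs of groups, but each contrast has only 2 pairs and no label ties a number to an animal or batch. The replicate block left 1 (WT) and 2 (KO) members called with IL-4. It turned the sign of Psmb9 in KO against WT controls (-0.0045). Counts over all genes with the block were 27, 21 and 36 for KO against WT (control, LPS and IFNγ, IL-4) in place of 10, 8 and 9.

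Over all genes those 3 comparisons gave 66, 35 and 18 with DESeq2, 107, 81 and 33 without the filter, 4, 6 and 5 in the libraries of the contrast alone, and 8 to 47, 7 to 534 and 8 to 20 with a library left out. IL-4 gave 1222 in WT (1841 with DESeq2, 3475 in its libraries alone, 175 to 293 with a library left out) and 928 in KO (1640, 8, and 310 to 1075, and 1620 without the filter). The interactions gave 0 (LPS and IFNγ: 5 with DESeq2, 8 without the filter, 0 to 33 with a library left out; IL-4: 4, 23 and 0 to 11). The cause of these differences was not tested.

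Uncalled members whose sign turned when a library was left out had these ranges of log2 fold change. KO against WT, control: B2m -0.19 to 0.67, H2-D1 -0.46 to 0.22, H2-K1 -0.71 to 0.41, Nlrc5 -0.045 to 0.56, Psmb10 -0.18 to 0.48, Psmb8 -0.12 to 0.42, Psmb9 -0.45 to 0.39, Tap1 -0.42 to 0.66, Tapbp -0.12 to 0.63. After LPS and IFNγ: Nlrc5 -0.097 to 0.24, Tap2 -0.14 to 0.30. After IL-4: Psmb10 -0.046 to 0.22, Psmb8 -0.18 to 0.28, Psmb9 -0.24 to 0.021, Tap1 -0.12 to 0.093, Tap2 -0.034 to 0.97. IL-4 in WT: H2-D1 -0.27 to 0.12, H2-K1 -0.25 to 0.14, Tap2 -0.90 to 0.10, and the members' median -0.26 to 0.13. IL-4 in KO: B2m -0.69 to 0.17, H2-K1 -0.26 to 0.86, Psmb8 -0.16 to 0.38, Psmb9 -0.72 to 0.12, Tapbp -0.44 to 0.32. Interaction for LPS and IFNγ: B2m -0.60 to 0.25, H2-D1 -0.044 to 0.63, H2-K1 -0.30 to 0.82, Nlrc5 -0.48 to 0.12, Psmb10 -0.13 to 0.55, Psmb8 -0.15 to 0.54, Psmb9 -0.12 to 0.71, Tap1 -0.59 to 0.50, Tapbp -0.54 to 0.22. Interaction for IL-4: H2-K1 -0.21 to 0.91, Psmb10 -0.40 to 0.26, Psmb8 -0.35 to 0.20, Psmb9 -0.49 to 0.34, Tap1 -0.67 to 0.41, Tapbp -0.59 to 0.17. A left-out library leaves its group with 1 library, which is then assumed to vary like the other groups. The length of all exons, chosen after seeing the data, moved 33 of the 36 group ratios beyond the spread of the libraries.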
